A study of Mus musculus with 23 samples.

Results

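Bhmg1 (also named Meiosin), Stra8, Meioc, Ythdc2 and Rec8 are regulators of the step from mitotic divisions to meiosis, and they make up 5 of the 27466 genes of the deposited count table. The set was selected on the level of Bhmg1, which in these libraries lay higher at 10.5 than at 6.5 days postpartum (dpp), and the other members were named beside it. Bhmg1 was therefore only described, with no test, in every comparison that holds either of those ages, and no member was tested for 10.5 against 6.5 dpp. The libraries came from polyadenylated RNA of whole testis tissue, germ and somatic cells together, of wild-type CD-1 mice. In vivo testes of 6.5 dpp were used fresh or following a controlled slow freeze (CSF) and thaw, and older testes, of 36.5 dpp, 22.5 dpp or 10.5 dpp, only fresh. Explants of 6.5 dpp testes were grown for 4, 16 or 30 days (D4, D16, D30) in a medium with serum replacement, gentamicin and retinol, which testis tissue can convert to retinoic acid, and 1 library at D30 came from CSF tissue. According to the paper, retinol was supplied in alternation at set intervals and not throughout. The time from the last supply to each sampling day is not given, so it cannot be told apart from the day of culture. By age D4 corresponds to 10.5 dpp, D16 to 22.5 dpp and D30 to 36.5 dpp. Explants of a replicate were pooled and their necrotic centre was removed, which limits what such a library can say about tissue layout.

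Retinoic acid made in the testis induces Stra8 in spermatogonia, and STRA8 acts together with MEIOSIN, a DNA-binding protein, to switch on the genes of meiotic prophase. MEIOC and the RNA helicase YTHDC2 form a complex in the cytoplasm that lowers mitotic transcripts and keeps germ cells in prophase. REC8 is the meiotic kleisin of the cohesin ring, which holds sister chromatids together until the meiotic divisions.

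The short promoter stretches below show, in the members with a RefSeq promoter window (4 of 5), where letters resembling known binding motifs of this pathway lie. Windows ran from 250 bases before to 50 after the start of the transcript (RefSeq, GRCm38.p6), both strands were searched, and no match overlapped a match of another motif. CNCCTCAG, the motif linked to STRA8 and MEIOSIN, was in 7.94% of all 32851 promoter windows and among the members only in that of Bhmg1. CACGTG, the E-box of helix-loop-helix proteins, was in 7.15% of windows and among the members likewise only in that of Bhmg1. TCCCGC, linked to the repressor E2F6, was in 20.0% of windows and in those of Bhmg1, Meioc and Rec8, and AGGTCA, a core element of nuclear receptors such as those of retinoic acid, was in 16.3% and among the members only in that of Stra8. Each stretch has 30 bases of the gene's own strand, 5′ to 3′, with the matching letters in capitals, and GCGGGA is TCCCGC read on the opposite strand. A match is a description and not a site, and no match says only that these letters were not in this window.
Bhmg1, CNCCTCAG, chr7:19118370-19118399, minus strand, 44 bases before the start: gggcgtggcctCGCCTCAGgcgctctggtg
Bhmg1, CACGTG, chr7:19118498-19118527, minus strand, 171 bases before the start: cgggagcgggagCACGTGtcggagctgtgg
Bhmg1, TCCCGC, chr7:19118397-19118426, minus strand, 70 bases before the start: tggcaccgcgtgGCGGGAacgtggaggggg
Stra8, AGGTCA, chr6:34920742-34920771, plus strand, 194 bases before the start: gatggggtgaaaAGGTCAtcttgctccttc
Stra8, AGGTCA, chr6:34920898-34920927, plus strand, 38 bases before the start: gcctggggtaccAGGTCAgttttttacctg
Meioc, TCCCGC, chr11:102665345-102665374, plus strand, 228 bases before the start: agcttcctttgaGCGGGAaacatcttcagc
Rec8, TCCCGC, chr14:55618116-55618145, plus strand, 38 bases before the start: gtgtgcacctgaTCCCGCtggagggcgaca
Bhmg1 held TCCCGC at 2 further places, 184 and 178 bases before the start, so that 3 matches to it and the E-box lay within the same window. The matching letters of Stra8 and Rec8 lay in an exon of a GENCODE transcript, and those of Bhmg1 and Meioc in none. The RefSeq spans of these 4 genes, given with each gene, reach further upstream than the start that the window is set on.

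**Figure D1:**
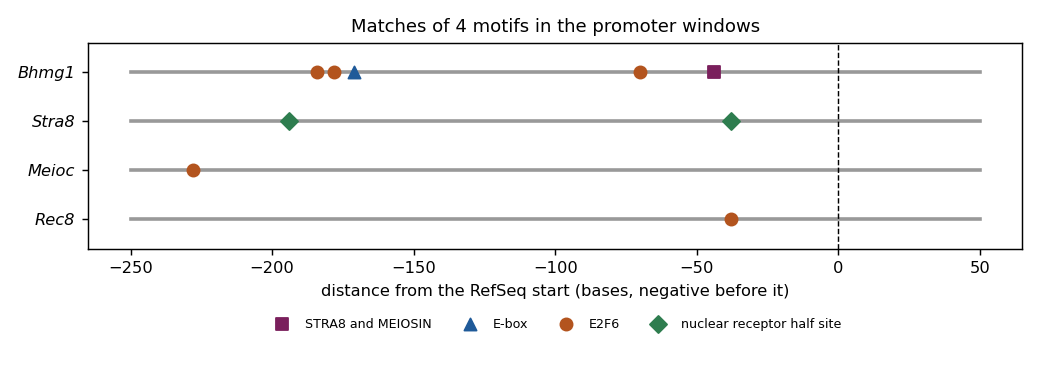
Places of the 4 searched motifs in the promoter windows of Bhmg1, Stra8, Meioc and Rec8, with the distance from the start of the transcript in bases on the horizontal axis, 1 line per gene and 1 symbol per motif. Bhmg1 carries 5 matches to 3 motifs, Stra8 2 matches to AGGTCA, and Meioc and Rec8 1 match each to TCCCGC.

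The table held 23 columns and 22 distinct libraries, since 6.5 dpp fresh replicates 2 and 3 had the same value for every gene and were counted as 1 sample. The library labelled 6.5 dpp fresh replicate 1 stood apart. Its counts had a Spearman correlation over genes of 0.975 with D16 replicate 1, against 0.728 to 0.810 with the other 6.5 dpp libraries, and its summed level of 5 pachytene spermatocyte markers was 3799 counts per 1000000 counts of the library (CPM), against 74.1 to 83.0 CPM in those. It was left out, and calls and signs of the members that change with it are given beside the values without it. The gene lists and cell type markers were tested only without it. The 21 libraries used had totals of 28351546 to 69029328 counts. There were 3 each for 10.5 dpp, 22.5 dpp and D4, 2 each for 36.5 dpp and D16, 4 for 6.5 dpp (1 fresh, 3 CSF) and 4 for D30 (3 fresh, 1 CSF). The study calls its replicates biological, but the labels do not say which libraries came from separate animals, and the p-values measure the spread between these libraries.

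The labelled tissue was checked against its markers. The germ cell markers Ddx4 and Dazl together had 586 to 1608 CPM over the 21 libraries, and the 5 pachytene markers had 74.1 to 157 CPM in all libraries of 6.5 dpp, 10.5 dpp and D4, and 1465 to 8264 CPM in all later ones. The 6 spermatid markers, with Prm1 and Tnp1 among them, had 16672 to 21706 CPM at 36.5 dpp and 352 to 1662 CPM at D30. Late germ cells were thus marked by far lower levels at D30 than at the matched age in vivo. In bulk tissue, fewer cells of a type and less RNA per cell cannot be told apart, for any value given here. Levels are in CPM on the library total, and fold changes in log2 units come from edgeR with TMM factors, which were 0.661 to 0.674 at 36.5 dpp and 0.979 to 1.06 at D30, so that the CPM ratio and the fitted fold change of a gene differ most between those groups. Ranges, orders and overlaps of stages given below are on the library total, and some of them change when CPM is scaled by TMM factors.

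Per kilobase of exon, the scale on which levels of different genes can be compared, Stra8 was the highest member at 10.5 dpp with 88.7 CPM per kb, above Meioc with 17.7, Bhmg1 with 12.5, Rec8 with 8.23 and Ythdc2 with 5.80 CPM per kb. At 22.5 dpp the order had turned, with Meioc at 76.5, Stra8 at 25.5, Bhmg1 at 13.1, Ythdc2 at 11.1 and Rec8 at 9.79 CPM per kb. At 36.5 dpp Meioc had 39.0 and Rec8 28.3 CPM per kb, and Bhmg1 was the lowest member with 1.93. At D30 Stra8 and Meioc were level, at 42.7 ± 6.09 and 41.7 ± 17.3 CPM per kb (SD, n = 4). Exon lengths were 1803 bases for Stra8, 4695 for Bhmg1, 4616 for Meioc, 8878 for Ythdc2 and 2935 for Rec8.

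**Figure D2:**
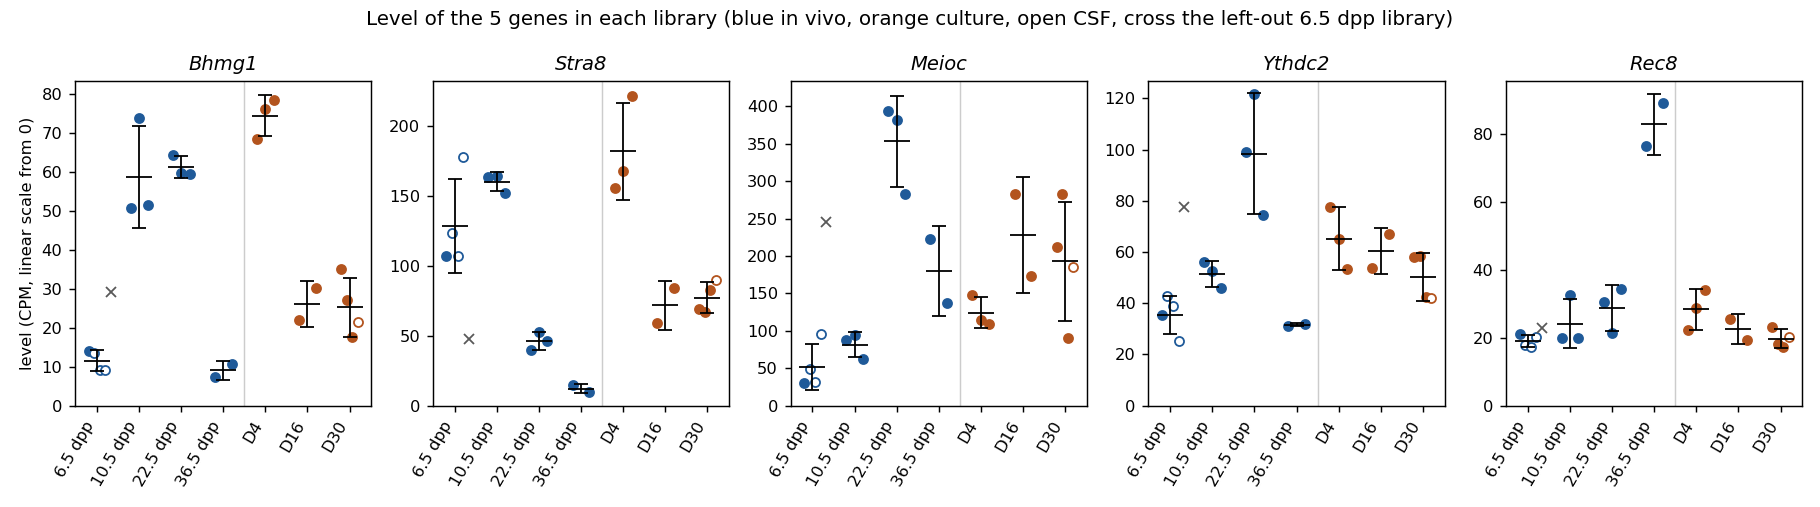
Level of each member in CPM (vertical axis, from 0) in each of the 21 libraries, by stage (horizontal axis), with 1 panel per gene, 1 point per library (open for CSF), the stage mean with its SD, and a cross for the library labelled 6.5 dpp fresh replicate 1. Bhmg1 was highest at 10.5 dpp, 22.5 dpp and D4, Stra8 highest up to 10.5 dpp and at D4, Meioc highest at 22.5 dpp and Rec8 highest at 36.5 dpp.

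Stra8, the retinoic acid target (NCBI gene 20899, chr6:34920163-34939344, plus strand), was abundant before Bhmg1 was. At 6.5 dpp it had 107 CPM in the fresh library and 123, 107 and 178 CPM in the CSF libraries. At 10.5 dpp it had 164, 164 and 152 CPM, within the range of the 6.5 dpp libraries. It then had 39.4, 52.3 and 46.3 CPM at 22.5 dpp and 14.4 and 9.88 CPM at 36.5 dpp, so each of these ages lay apart from and below the age before. From 10.5 to 22.5 dpp Stra8 fell by 1.51 ± 0.23 on the log2 scale (SE, edgeR adjusted p = 2.18e-05), and from 22.5 to 36.5 dpp by a further 1.41 ± 0.26 (adjusted p = 0.00035). In culture it had 156, 168 and 221 CPM at D4, 59.3 and 83.8 CPM at D16, and 69.1, 66.7 and 82.4 CPM in fresh and 89.8 CPM in CSF tissue at D30. The D4 libraries overlapped those of 6.5 and 10.5 dpp, and those of D16 and D30 overlapped each other. Stra8 fell by 1.30 ± 0.26 on the log2 scale from D4 to D16 (adjusted p = 0.00112), and for D30 against D16 its log2 fold change was 0.13 ± 0.24 (adjusted p = 0.954). In the order of stage means, D4 (182 ± 34.9 CPM, n = 3), 10.5 dpp (160 ± 6.77, n = 3) and 6.5 dpp (129 ± 33.7, n = 4) did not differ beyond their spread, nor did D30 (77.0 ± 10.99, n = 4) and D16 (71.6 ± 17.4, n = 2), while 22.5 dpp (46.0 ± 6.41, n = 3) and 36.5 dpp (12.2 ± 3.22, n = 2) each lay apart. The D4 against 6.5 dpp difference of Stra8 was 0.50 ± 0.21 on the log2 scale with an adjusted p of 0.096, and it passed only without 6.5 dpp CSF replicate 3, its highest library of that age (adjusted p = 0.00343, in a range of 0.00343 to 0.341 over 17 alternatives).

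Bhmg1, the partner of STRA8 (NCBI gene 243866, chr7:19098271-19118531, minus strand), was low at 6.5 dpp, with 14.03 CPM in the fresh library and 13.6, 9.15 and 9.24 CPM in the CSF libraries. At 10.5 dpp it had 50.9, 73.8 and 51.6 CPM, a 5.11-fold higher mean, which is the difference the set was chosen by and is given with no test. Its level at 22.5 dpp was 64.5, 59.8 and 59.6 CPM, inside the range of 10.5 dpp. Bhmg1 thus lay within its 10.5 dpp range at an age at which Stra8 had fallen. At 36.5 dpp it had 7.31 and 10.8 CPM, below every library of 22.5 dpp and overlapping those of 6.5 dpp, and it fell by 2.25 ± 0.32 on the log2 scale from 22.5 to 36.5 dpp (edgeR adjusted p = 2.83e-05). In culture Bhmg1 had 68.6, 76.3 and 78.6 CPM at D4, with a mean 6.48-fold that of 6.5 dpp, again with no test. At D16 it had 21.9 and 30.2 CPM, and at D30 35.1, 27.0 and 17.6 CPM in fresh and 21.5 CPM in CSF tissue. All D16 and D30 libraries lay below all D4 libraries and above all 36.5 dpp libraries. Bhmg1 fell by 1.47 ± 0.30 on the log2 scale from D4 to D16 (adjusted p = 0.00142), a call that was lost without D16 replicate 1 (adjusted p = 0.052) and with the library labelled 6.5 dpp fresh replicate 1 (0.0592), the latter being the highest value over 15 alternatives and the lowest 8.71e-06. In the order of stage means D4 (74.5 ± 5.24 CPM, n = 3) lay apart above 22.5 dpp (61.3 ± 2.78, n = 3), which overlapped 10.5 dpp (58.8 ± 13.1, n = 3), then came D16 (26.0 ± 5.89, n = 2) and D30 (25.3 ± 7.59, n = 4), which overlapped, and 6.5 dpp (11.5 ± 2.66, n = 4) and 36.5 dpp (9.04 ± 2.45, n = 2), which overlapped too. Scaled by TMM factors, Bhmg1 had a mean of 66.2 CPM at 22.5 dpp, and the libraries of D4 and 22.5 dpp overlapped. The library labelled 6.5 dpp fresh replicate 1 had 29.1 CPM of Bhmg1, within the range of D16 and D30.

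Meioc (NCBI gene 268491, chr11:102665351-102682240, plus strand), the meiosis-specific partner of YTHDC2, was the member with the highest level per kilobase at 22.5 and 36.5 dpp. It had 30.8 CPM in the fresh and 48.2, 31.4 and 95.9 CPM in the CSF libraries of 6.5 dpp, and 87.4, 94.7 and 62.7 CPM at 10.5 dpp, which overlapped. At 22.5 dpp it had 394, 382 and 283 CPM, above every library of 10.5 dpp, and at 36.5 dpp 223 and 137 CPM. Meioc thus peaked in vivo when Stra8 was already low. It rose by 2.41 ± 0.46 on the log2 scale from 10.5 to 22.5 dpp (edgeR adjusted p = 0.000224). The step to 36.5 dpp was a log2 fold change of -0.47 ± 0.50 (adjusted p = 0.446). In culture Meioc had 148, 115 and 109 CPM at D4, 282 and 173 CPM at D16, and 212, 283 and 89.8 CPM in fresh and 186 CPM in CSF tissue at D30. All D4 libraries were above all 6.5 dpp libraries, and the log2 fold change of 1.25 ± 0.41 passed the test (adjusted p = 0.0359). That call was not firm, as it was lost in 10 of 17 alternatives, among them leaving out 6.5 dpp fresh replicate 2 (0.0846), CSF replicate 1 (0.0681) or CSF replicate 2 (0.0977), or D4 replicate 1 (0.128), 2 (0.0724) or 3 (0.0609), and with the library labelled 6.5 dpp fresh replicate 1 (0.704, where that library had 246 CPM). The lowest adjusted p among the alternatives was 0.000222. Within D16 and within D30 the libraries stood in the same order by Meioc as by the summed pachytene markers, with 282 CPM beside 4443 and 173 beside 1875 CPM at D16, and 283 beside 4534, 212 beside 3841, 186 beside 3465 and 89.8 beside 1465 CPM at D30. The part of the pachytene cells in the Meioc level was not tested. By stage means Meioc at 22.5 dpp (353 ± 60.8 CPM, n = 3) lay apart above D16 (228 ± 77.2, n = 2), D30 (193 ± 80.0, n = 4), 36.5 dpp (180 ± 60.5, n = 2) and D4 (124 ± 20.7, n = 3), each of which overlapped the next, and D4 lay apart above 10.5 dpp (81.6 ± 16.8, n = 3), which overlapped 6.5 dpp (51.6 ± 30.6, n = 4). Scaled by TMM factors, Meioc at 36.5 dpp had a mean of 269 CPM, above those of D16 and D30, and overlapped 22.5 dpp.

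Ythdc2 (NCBI gene 240255, chr18:44827730-44889720, plus strand), the RNA helicase of the complex, is also made outside the germ line and varied less than Meioc. At 6.5 dpp it had 35.3 CPM in the fresh library and 42.7, 38.8 and 25.1 CPM in the CSF libraries, and at 10.5 dpp 56.1, 52.4 and 46.1 CPM. It had 99.1, 122 and 74.5 CPM at 22.5 dpp, above all earlier libraries, and 31.1 and 32.0 CPM at 36.5 dpp, on the library total back inside the range of 6.5 dpp. Scaled by TMM factors, the Ythdc2 mean at 36.5 dpp was 47.3 CPM, and both libraries lay above those of 6.5 dpp. Ythdc2 therefore shared its peak age with Meioc. It rose by 1.22 ± 0.22 on the log2 scale from 10.5 to 22.5 dpp (edgeR adjusted p = 0.000111) and fell by 1.12 ± 0.25 from 22.5 to 36.5 dpp (adjusted p = 0.00128). Scaled to Ddx4 and Dazl in place of TMM these steps no longer passed, with adjusted p = 0.429 and 0.125, the highest values over 16 and 15 alternatives, whose lowest were 1.12e-08 and 5.9e-05. In culture Ythdc2 had 77.5, 65.0 and 53.2 CPM at D4, 53.9 and 66.9 CPM at D16, and 58.1, 58.6 and 42.3 CPM in fresh and 41.9 CPM in CSF tissue at D30, ranges that overlapped from each day to the next. From 6.5 dpp to D4 it rose by 0.92 ± 0.20 on the log2 scale (adjusted p = 0.00305), which held in every leave-one-out fit and was lost with the library labelled 6.5 dpp fresh replicate 1 (0.233, where that library had 77.4 CPM) and with fresh libraries alone (0.0987, where 1 library stands for 6.5 dpp and is assumed to vary like the other groups), against a lowest value of 0.000199 over 17 alternatives. In the order of the stage means, from 22.5 dpp (98.4 ± 23.5 CPM, n = 3) through D4 (65.2 ± 12.2, n = 3), D16 (60.4 ± 9.17, n = 2), 10.5 dpp (51.5 ± 5.06, n = 3), D30 (50.2 ± 9.37, n = 4) and 6.5 dpp (35.5 ± 7.51, n = 4) to 36.5 dpp (31.6 ± 0.61, n = 2), every stage overlapped its neighbour.

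Rec8 (NCBI gene 56739, chr14:55618002-55625395, plus strand) had a different course from the other members, with its highest level in vivo at 36.5 dpp. It had 21.0 CPM in the fresh and 18.0, 17.4 and 20.4 CPM in the CSF libraries of 6.5 dpp, 20.1, 32.5 and 19.9 CPM at 10.5 dpp, and 30.4, 21.3 and 34.4 CPM at 22.5 dpp, each age overlapping the next. At 36.5 dpp it had 76.6 and 89.4 CPM, above every other library by a wide margin. From 22.5 to 36.5 dpp Rec8 rose by 2.02 ± 0.27 on the log2 scale (edgeR adjusted p = 1.95e-05), the age step over which Bhmg1, Stra8 and Ythdc2 fell. In culture it had 22.2, 28.9 and 34.1 CPM at D4, 25.6 and 19.3 CPM at D16, and 23.3, 18.3 and 17.2 CPM in fresh and 20.3 CPM in CSF tissue at D30. No stage of culture lay apart from the next. The Rec8 difference of 22.5 against 10.5 dpp was 0.56 ± 0.25 on the log2 scale with an adjusted p of 0.0584, and it passed without 10.5 dpp replicate 2 (0.0115) or 22.5 dpp replicate 2 (0.0108), with RLE factors (0.038) and by DESeq2 (0.033), in a range of 0.0108 to 0.371 over 16 alternatives. By stage means 36.5 dpp (83.0 ± 9.03 CPM, n = 2) lay apart, and 22.5 dpp (28.7 ± 6.71, n = 3), D4 (28.4 ± 5.98, n = 3), 10.5 dpp (24.2 ± 7.23, n = 3), D16 (22.5 ± 4.42, n = 2), D30 (19.8 ± 2.69, n = 4) and 6.5 dpp (19.2 ± 1.77, n = 4) each overlapped the next.

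The calls were counted over the members for each step in vivo. For 10.5 against 6.5 dpp, the comparison that chose the set, log2 fold changes were 2.30 for Bhmg1, 0.56 for Meioc, 0.48 for Ythdc2, 0.26 for Rec8 and 0.23 for Stra8, all without a test, and of all 19255 genes 0.675% were called higher and 0.467% lower. With the library labelled 6.5 dpp fresh replicate 1 put back, the log2 fold changes were 1.83 for Bhmg1, -0.33 for Meioc and 0.11 for Ythdc2. For 22.5 against 10.5 dpp, Meioc and Ythdc2 rose and Stra8 fell among the 4 members tested, where 33.6% of all genes were called higher and 27.9% lower. Bhmg1 was described only there, with a log2 fold change of 0.36. For 36.5 against 22.5 dpp, 4 of 5 members were called, with Rec8 higher and Bhmg1, Stra8 and Ythdc2 lower, beside 23.3% of all genes higher and 27.5% lower. With such shares of all genes called, a count of 3 or 4 members is not a result about the set.

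The same counts in culture were smaller. For D4 against 6.5 dpp, Meioc and Ythdc2 rose among the 4 members tested, beside 10.8% of all genes higher and 10.1% lower, and the log2 fold change of Bhmg1, not tested, was 2.72. With the library labelled 6.5 dpp fresh replicate 1 put back, no member was called in that comparison, and the log2 fold change of Bhmg1 was 2.26. For D16 against D4, Bhmg1 and Stra8 fell, beside 18.4% of all genes higher and 5.48% lower. For D30 against D16 no member passed edgeR, none had an unadjusted p under 0.05 and none passed DESeq2, beside 1.46% of all genes higher and 0.332% lower. The members' log2 fold changes there ran from -0.23 (Ythdc2) to 0.13 (Stra8).

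How culture compared with the testis of the same age was asked by setting each culture day against its matched age. At D4 against 10.5 dpp none of the 4 members tested passed edgeR, none had an unadjusted p under 0.05 and none passed DESeq2, beside 4.92% of all genes called higher and 3.18% lower. The members' log2 fold changes were 0.27 ± 0.22 for Stra8, 0.69 ± 0.44 for Meioc, 0.43 ± 0.21 for Ythdc2 and 0.32 ± 0.25 for Rec8. Bhmg1, described only, had a mean of 74.5 CPM at D4 and 58.8 CPM at 10.5 dpp, with overlapping libraries and a log2 fold change of 0.43. All Meioc libraries of D4 lay above all those of 10.5 dpp, and in a fit of only these groups Meioc and Ythdc2 passed (adjusted p = 0.00705 and 0.031, the lowest over 16 alternatives each, the highest being 0.808 and 0.73). The misses in the joint fit therefore do not show that the levels were equal.

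At D16 against 22.5 dpp, 2 of 5 members were called, Bhmg1 and Ythdc2, both lower in culture, beside 14% of all genes higher and 11.8% lower. Bhmg1 had 21.9 and 30.2 CPM at D16 against 59.6 to 64.5 CPM at 22.5 dpp, without overlap, and a log2 fold change of -1.40 ± 0.30 (edgeR adjusted p = 0.00398). Ythdc2 had 53.9 and 66.9 CPM against 74.5 to 122 CPM, and a log2 fold change of -0.85 ± 0.24 (adjusted p = 0.0188). The Bhmg1 call was lost with the library labelled 6.5 dpp fresh replicate 1 (0.0619) and with scaling to Ddx4 and Dazl (0.185, the highest of 15 alternatives, the lowest being 1.58e-05). The Ythdc2 call was lost in 6 of 15, among them without 22.5 dpp replicate 1 (0.0621) or either D16 replicate (0.0975 and 0.092), with the library labelled 6.5 dpp fresh replicate 1 (0.157) and with scaling to Ddx4 and Dazl (0.68, the highest, against a lowest value of 0.000832). Stra8 lay higher at D16 in every library, 1.56-fold by mean CPM, but its log2 fold change of 0.48 ± 0.25 did not pass (adjusted p = 0.154), except with scaling to Ddx4 and Dazl, where it was 1.11 (0.0276, the lowest over 15 alternatives, the highest being 0.673). Meioc had a log2 fold change of -0.79 ± 0.50 (adjusted p = 0.25), and Rec8 one of -0.53 ± 0.28 (0.169), which passed only without 22.5 dpp replicate 2 (0.0456, in a range of 0.0456 to 0.98 over 15 alternatives). Beside these results the pachytene markers had 1875 and 4443 CPM at D16 against 4705 to 7244 CPM at 22.5 dpp, with 3 of 5 lower and none higher, and 1 of 2 germ cell markers was lower. Of the 6 Sertoli cell markers 5 were higher and 1 lower, the 3 endothelial markers were all higher and the 5 Leydig cell markers all lower. Of 5 undifferentiated spermatogonia markers 2 were higher and none lower, and of 3 differentiating spermatogonia markers 1 was lower and none higher. Their part was not tested.

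At D30 against 36.5 dpp, 3 of 5 members were called, beside 32.4% of all genes higher and 35% lower. Stra8 was higher in culture, with 66.7 to 89.8 CPM against 9.88 and 14.4 CPM, 6.34-fold by mean CPM, and a log2 fold change of 2.02 ± 0.26 (edgeR adjusted p = 5.44e-06). Rec8 was lower in culture, with 17.2 to 23.3 CPM against 76.6 and 89.4 CPM, 4.20-fold by mean CPM, and a log2 fold change of -2.70 ± 0.25 (adjusted p = 2.07e-07). These calls of Stra8 and Rec8 held in all 16 alternatives. Bhmg1 was higher in culture, with 17.6 to 35.1 CPM against 7.31 and 10.8 CPM and a log2 fold change of 0.86 ± 0.29 (adjusted p = 0.014), a call lost in 4 of 16 alternatives, namely without 36.5 dpp replicate 1 (0.184, the highest, against a lowest of 0.000199), with the library labelled 6.5 dpp fresh replicate 1 (0.1), with RLE factors (0.0664) and by DESeq2 (0.06). Meioc did not pass, with overlapping libraries and a log2 fold change of -0.52 ± 0.46 (adjusted p = 0.322). Ythdc2 lay higher at D30 in every library by CPM, 1.59-fold by mean, while its log2 fold change after TMM was 0.04 ± 0.23 (adjusted p = 0.881), and 0.67 with library size only, where it passed (0.0204, the lowest over 16 alternatives, the highest being 0.983), so its direction and call depend on the scaling. Beside these results the spermatid markers were 16672 to 21706 CPM at 36.5 dpp and 352 to 1662 CPM at D30, and the Leydig cell markers 1549 to 1925 CPM and 317 to 571 CPM. The somatic markers of the tubule and vessels lay the other way, with 5 of 6 Sertoli cell markers higher at D30, the peritubular markers at 65.3 to 72.3 CPM at 36.5 dpp and 217 to 441 CPM at D30 (2 of 3 higher), and the endothelial markers at 13.96 to 15.10 and 128 to 171 CPM (3 of 3 higher). The undifferentiated spermatogonia markers had 59.6 to 64.9 CPM at 36.5 dpp and 145 to 187 CPM at D30, with 3 of 5 higher and none lower. Of 3 differentiating spermatogonia markers 1 was higher and 1 lower, and of 5 pachytene markers 4 were lower and none higher. The part of these cell types in the members' differences was not tested.

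**Figure D3:**
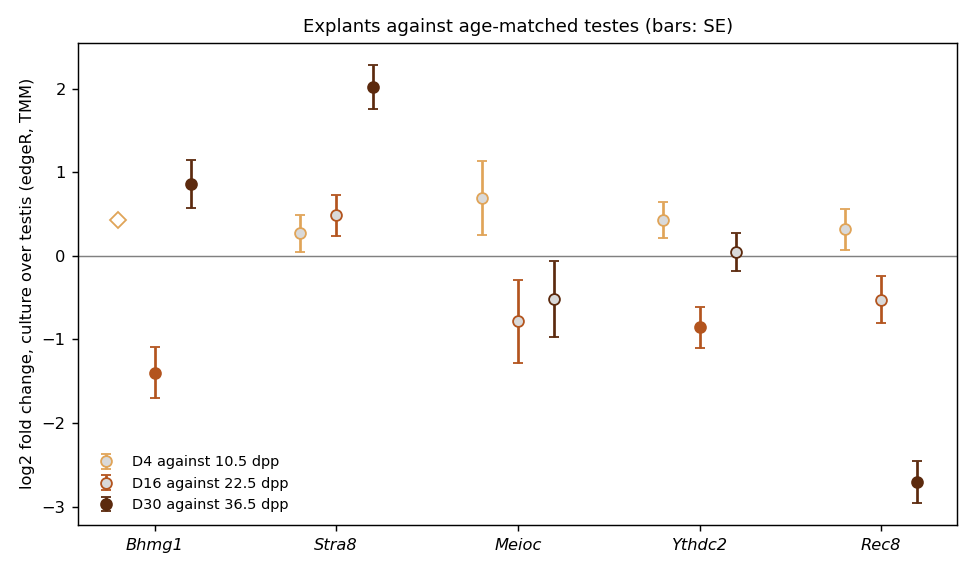
Log2 fold change of each member in culture against the age-matched testis (vertical axis, bars ± SE from edgeR), with the genes on the horizontal axis and 1 colour each for D4, D16 and D30. Points are filled in that colour for an adjusted p under 0.05 and grey otherwise, with an open diamond for Bhmg1 at D4, which was not tested. Stra8 reached 2.02 and Rec8 -2.70 at D30, and Bhmg1 went from -1.40 at D16 to 0.86 at D30.

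Whether the effect of culture differed between ages was tested as a difference of contrasts. Between 10.5 and 22.5 dpp the effect on Ythdc2 differed by -1.29 ± 0.32 on the log2 scale (edgeR adjusted p = 0.0208), the only call among the 4 members tested, beside 9.61% of all genes called in either direction. It was lost in 8 of 21 alternatives, among them without 10.5 dpp replicate 3 (0.056), 22.5 dpp replicate 1 (0.0554), D4 replicate 1 (0.0517) or either D16 replicate (0.0621 and 0.0633), with the library labelled 6.5 dpp fresh replicate 1 (0.23) and with scaling to Ddx4 and Dazl (0.339, the highest, against a lowest of 0.000745). For Meioc it was -1.48 ± 0.67 (adjusted p = 0.163), and it passed in the fit of only these groups (0.0144, in a range of 0.0144 to 0.482). For Bhmg1 that difference was -1.83, not tested. Between 22.5 and 36.5 dpp the effect of culture differed for 3 of 5 members, beside 20.1% of all genes called in either direction. It went up by 2.26 ± 0.42 for Bhmg1 (adjusted p = 0.00155) and by 1.54 ± 0.36 for Stra8 (0.00665), and down for Rec8, with a difference of -2.18 ± 0.37 (0.000846). In vivo Bhmg1 and Stra8 fell and Rec8 rose over those ages, and in culture no member was called between D16 and D30. The Bhmg1 and Rec8 differences held in all 21 alternatives, and that of Stra8 was lost without D16 replicate 1 (0.0568) and with scaling to Ddx4 and Dazl (0.0915, the highest, against a lowest of 0.000843). Ythdc2 differed by 0.89 ± 0.33 (adjusted p = 0.0654), and it passed in 4 of 21 alternatives, among them without 22.5 dpp replicate 3 (0.0399), in a range of 0.0071 to 0.403.

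Levels were also set against the summed CPM of Ddx4 and Dazl, genes of the germ line. Bhmg1 was 1.21% ± 0.54 of that sum at 6.5 dpp (n = 4), 6.48% ± 1.66 at 10.5 dpp (n = 3) and 9.65% ± 1.83 at D4 (n = 3), which restates the difference that chose the set and is no support for it. It was 4.37% ± 0.60 at 22.5 dpp (n = 3), 1.18% ± 0.46 at 36.5 dpp (n = 2), 2.57% ± 1.12 at D16 (n = 2) and 2.87% ± 0.72 at D30 (n = 4), with the D16 libraries below those of 22.5 dpp and the D30 libraries above those of 36.5 dpp. Stra8 was 17.6% ± 1.65 at 10.5 dpp (n = 3), 3.27% ± 0.52 at 22.5 dpp (n = 3), 1.53% ± 0.21 at 36.5 dpp (n = 2) and 9.24% ± 3.54 at D30 (n = 4), so that it was higher at D30 than at 36.5 dpp, by 6.03-fold. It was 12.5% ± 2.10 at 6.5 dpp (n = 4), 23.5% ± 6.03 at D4 (n = 3) and 7.07% ± 3.18 at D16 (n = 2). By this ratio, unlike by CPM, all 10.5 dpp and D4 libraries lay above those of 6.5 dpp, by 1.40-fold and 1.88-fold in the mean. Rec8 was 10.7% ± 2.52 at 36.5 dpp (n = 2) and 2.31% ± 0.57 at D30 (n = 4), a 4.64-fold difference without overlap. For Meioc the later stages lay closer together than by CPM, with 24.9% ± 2.34 at 22.5 dpp (n = 3), 22.6% ± 4.81 at 36.5 dpp (n = 2), 21.1% ± 2.62 at D16 (n = 2) and 20.7% ± 4.23 at D30 (n = 4), while D4 over 10.5 dpp was 1.77-fold, against 1.52-fold by CPM. Ythdc2 at D16 (5.91% ± 2.16, n = 2) overlapped 22.5 dpp (6.87% ± 0.72, n = 3), while D4 over 10.5 dpp was 1.48-fold without overlap, against 1.27-fold by CPM. The reference genes were not constant themselves. Ddx4 rose by 1.97 ± 0.25 on the log2 scale from 10.5 to 22.5 dpp (edgeR adjusted p = 3.02e-06), a step at which this scaling ended the Ythdc2 call, and it was lower in culture at D16 (-0.84, 0.0342) and at D30 (-1.05, 0.00122). Dazl fell by 0.99 from 22.5 to 36.5 dpp (0.0371).

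**Figure D4:**
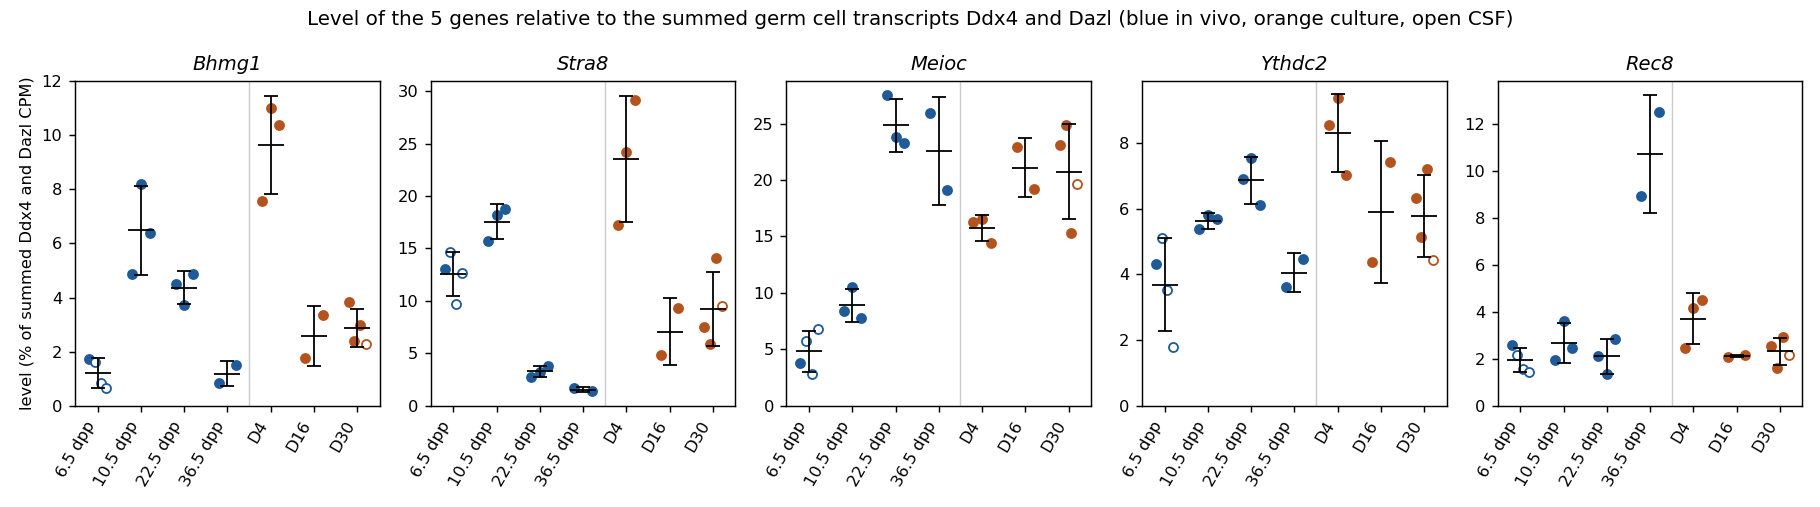
Level of each member as a percent of the summed CPM of Ddx4 and Dazl (vertical axis) in each of the 21 libraries by stage (horizontal axis), 1 panel per gene, with points for libraries and the stage mean with its SD. Stra8 stood at 17.6% at 10.5 dpp and 1.53% at 36.5 dpp, and Rec8 stood at 10.7% at 36.5 dpp and 2.31% at D30.

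Over the 21 libraries, with Pearson correlations of log2(CPM + 0.5) given as a description only, since the points share stages and depth, Bhmg1 went most with Ythdc2 among the members (0.79) and Stra8 was opposite to Rec8 (-0.70). Stra8 and Bhmg1 had a correlation of 0.40, and Stra8 and Meioc one of -0.48. Among 15774 other genes with a mean of at least 1 CPM, those most like Bhmg1 were Prdm9 (0.961), the histone methyltransferase that places recombination hotspots, Pparg (0.961) and Gm7972 (0.911). Those most like Stra8 were Tktl1 (0.981), Etfa (0.978) and Actr3b (0.975), and those most like Meioc were Terb1 (0.972), which tethers meiotic telomeres to the nuclear envelope, Tex101 (0.958) and Fnip1 (0.951). Ythdc2 was nearest to Mfn1 (0.946), Gapvd1 (0.946) and Gm17266 (0.945), and Rec8 to Spata2l (0.917), Rogdi (0.905) and Nectin4 (0.888).

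Meiotic prophase was followed in a list of 23 early meiotic prophase genes, which build the synaptonemal complex and make and repair DNA breaks. Whether STRA8 and MEIOSIN act on each of them was not tested. For 10.5 against 6.5 dpp, 5 of 23 were called higher, led by Prdm9 (log2 fold change 1.86 ± 0.21) and Mei1 (1.41 ± 0.22), and the median over the list was 0.72, against -0.01 over all genes. This is the comparison that chose Bhmg1, and nothing is read from it. From 10.5 to 22.5 dpp, 16 rose and 2 fell, beside 33.6% of all genes higher and 27.9% lower. The median was 1.99 against 0.06 over all genes. Spo11, which makes the breaks, rose by 5.18 ± 0.39 (edgeR adjusted p = 5.82e-09), Msh4, a crossover factor, by 3.28 ± 0.25 (6.94e-09), and Sycp2, an axis protein, by 3.28 ± 0.31 (9.83e-08). From 22.5 to 36.5 dpp 2 rose and 8 fell, beside 23.3% of all genes higher and 27.5% lower, led by Prdm9, which fell by 2.10 ± 0.27 (9.97e-06). The median there was -0.61 against -0.13 over all genes. From 6.5 dpp to D4, 12 of the list rose and 1 fell, with a median of 1.17 against -0.03, beside 10.8% of all genes higher and 10.1% lower. Among the 12, Prdm9 rose by 2.64 ± 0.21 (1.22e-07), Meiob by 4.41 ± 0.43 (1.26e-06) and Msh5 by 2.20 ± 0.23 (2.09e-06).

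In culture against the matched age the median of this list lay above that of all genes at D4 and below it at D16 and D30. At D4 against 10.5 dpp 6 of 23 were higher and none lower, beside 4.92% of all genes higher and 3.18% lower. They were led by Meiob (2.41 ± 0.44, edgeR adjusted p = 0.00159) and Msh4 (1.20 ± 0.23, 0.00274), and the median was 0.66 against -0.01 over all genes. At D16 against 22.5 dpp none was higher and 4 were lower, beside 14% of all genes higher and 11.8% lower, with a median of -0.66 against -0.08. The 4 were Msh5 (-1.61 ± 0.28, 0.000714), Msh4 (-0.998 ± 0.26, 0.0124), Sycp2 (-1.16 ± 0.33, 0.0179) and Majin (-1.34 ± 0.40, 0.0216). The difference between the effects of culture at D16 and D4 was itself called for 10 of 23, all downward, beside 9.61% of all genes in either direction. Msh5 was at -2.64 ± 0.37 (0.000409) and Msh4 at -2.20 ± 0.35 (0.00118). At D30 against 36.5 dpp 3 were higher and 5 lower, beside 32.4% of all genes higher and 35% lower, so these counts are not a result about the list. The median was -0.29 against -0.03. Among the called genes were Syce2 (-2.11 ± 0.36, 8.08e-05), Prdm9 (1.43 ± 0.25, 9.98e-05), Msh4 (-1.11 ± 0.23, 0.000494) and Syce3 (-2.06 ± 0.44, 0.000574). From D4 to D16, 4 rose and 2 fell, beside 18.4% of all genes higher and 5.48% lower, and from D16 to D30 none of the 23 passed.

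**Figure D5:**
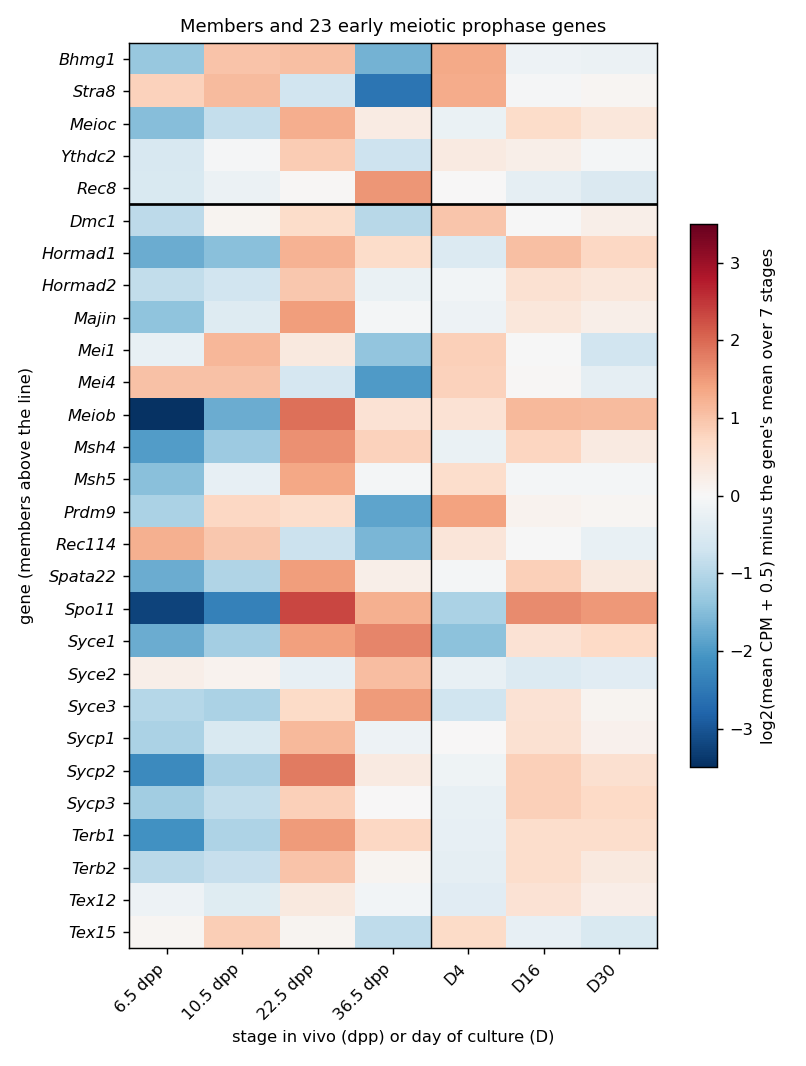
Heat map of the 5 members and 23 early meiotic prophase genes (rows) over the 7 stages (columns), coloured by log2(mean CPM + 0.5) minus the mean of the gene over stages, with values from -3.46 to 2.33. Spo11, Msh4 and Sycp2 are highest at 22.5 dpp, and Prdm9 and Bhmg1 are high at 10.5 dpp, 22.5 dpp and D4.

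Upstream of Stra8, 11 genes of retinoic acid synthesis and storage were followed in culture against the matched age. At D4 against 10.5 dpp 4 of 11 were higher and none lower, with Aldh1a3, a retinaldehyde dehydrogenase, at 0.87 ± 0.19 (edgeR adjusted p = 0.00594), and Lrat, which stores retinol as esters, at 1.31 ± 0.30 (0.0106). At D16 against 22.5 dpp 4 were higher and 2 lower, with Aldh1a3 at 1.16 ± 0.20 (0.000787). At D30 against 36.5 dpp 4 were higher and 5 lower, with Aldh1a3 at 2.54 ± 0.23 (1.24e-07), Stra6, a retinol transporter, at 2.47 ± 0.30 (2.62e-06) and Rdh11, a retinol dehydrogenase, at -1.73 ± 0.35 (0.000331). Aldh1a3 was thus higher in culture at every matched age, and the medians over the list were 0.50, -0.20 and 0.38, against -0.01, -0.08 and -0.03 over all genes. The shares of all genes called higher and lower were 4.92% and 3.18% at D4, 14% and 11.8% at D16 and 32.4% and 35% at D30. The counts of this and the following lists on each day are to be read against these shares. At D16 and D30 most Sertoli cell and all endothelial markers were higher too, as given above. At D4 2 of 3 endothelial and 2 of 5 undifferentiated spermatogonia markers were higher. Among those lower at D4 were 3 of 5 Leydig cell, 3 of 4 macrophage and 2 of 3 differentiating spermatogonia markers. The part of these cell types in this and the other gene lists was not tested. Of the 3 enzymes that break retinoic acid down, Cyp26b1 was lower at D4 (-1.36 ± 0.30, 0.00703) and higher at D30 (1.44 ± 0.33, 0.00106), Cyp26a1 higher at D30 (1.35 ± 0.31, 0.00103) and Cyp26c1 lower at D16 (-1.24 ± 0.39, 0.0297).

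Of the 8 retinoic acid receptors and binding proteins, Crabp1 and Crabp2 were lower at D4 against 10.5 dpp (-1.08 ± 0.31, edgeR adjusted p = 0.0357, and -1.21 ± 0.35, 0.0374). Rara, a retinoic acid receptor, was higher at D16 against 22.5 dpp (1.01 ± 0.21, 0.00284) and at D30 against 36.5 dpp (1.72 ± 0.22, 4.39e-06), where 3 of 8 were higher and 2 lower. In vivo 6 of the 8 fell from 10.5 to 22.5 dpp, beside 27.9% of all genes, and over this step Stra8, 5 of 6 Sertoli cell markers and 3 of 3 endothelial markers fell as well, whose part was not tested. The list was led by Crabp1 (-2.16 ± 0.32, 1.63e-05) and Rara (-1.30 ± 0.19, 1.85e-05). Of 11 factors of germ cell competence and differentiation, 9 fell and 1 rose over the same ages, among them Sohlh1 (-2.23 ± 0.23, 2.54e-07) and Dmrt1 (-2.03 ± 0.22, 5.78e-07), which fell, and Dmrtb1 (2.82 ± 0.36, 3.24e-06), which rose. At D4 against 10.5 dpp, 4 of these 11 were lower and none higher, with Neurog3 at -1.93 ± 0.37 (0.00247) and Sohlh2 at -0.83 ± 0.18 (0.00533). At D16 against 22.5 dpp 2 were higher and 1 lower, and at D30 against 36.5 dpp 6 were higher and 1 lower. Dmrt1, which holds back Stra8 in spermatogonia, was higher at D16 (0.93 ± 0.24, 0.0103) and at D30 (1.86 ± 0.25, 7.07e-06), and Dmrtb1 was lower on all 3 days, with -1.21 ± 0.34 (0.0347) at D4, -1.15 ± 0.39 (0.0377) at D16 and -2.17 ± 0.34 (3.3e-05) at D30.

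The repressor complex PRC1.6, which keeps meiotic genes silent and contains E2F6, was followed in a list of 9 genes. E2f6 fell from 10.5 to 22.5 dpp (-1.40 ± 0.14, edgeR adjusted p = 2.73e-07) and from 22.5 to 36.5 dpp (-0.90 ± 0.16, 0.000278), while Pcgf6 rose over the first of these steps (2.61 ± 0.22, 1.89e-08). In culture against the matched age, none of the 9 was called at D4, 1 was higher and 2 lower at D16, and 5 were higher and none lower at D30, where 32.4% of all genes were called higher and 35% lower. E2f6 was the gene called on both later days, at 0.53 ± 0.16 (0.0208) on D16 and 1.00 ± 0.16 (3.58e-05) on D30. Max, which pairs with MGA in that complex, was higher at D30 (1.27 ± 0.22, 8.43e-05).

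Of 8 binding partners and m6A factors, among them Rbm46 and Xrn1, which work with MEIOC and YTHDC2, 1 was called at D4 against 10.5 dpp (Mettl3, -0.45 ± 0.13, edgeR adjusted p = 0.044), none at D16 and 5, all higher, at D30, beside 32.4% of all genes called higher. The lead genes at D30 were Mettl14 (1.00 ± 0.15, 2.02e-05) and Rb1 (1.45 ± 0.24, 6.09e-05). In vivo 5 of the 8 fell from 22.5 to 36.5 dpp and none rose, beside 27.5% of all genes called lower.

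Of 11 cohesin and axis partners of REC8, none was called at D4 against 10.5 dpp. At D16 against 22.5 dpp 2 were higher and 4 lower, with Stag3, the meiotic cohesin subunit, at -1.24 ± 0.30 (edgeR adjusted p = 0.00747) and Rad21, the mitotic counterpart of REC8, at 0.92 ± 0.23 (0.00972). At D30 against 36.5 dpp 4 were higher and 3 lower, beside 32.4% and 35% of all genes, with Stag3 at -1.52 ± 0.26 (7.32e-05), Smc1a, the mitotic subunit, at 1.87 ± 0.35 (0.000172) and Rad21 at 0.91 ± 0.23 (0.00216). Rec8 and Stag3 were thus lower and Rad21 and Smc1a higher at D30 than at 36.5 dpp. Over the step from 22.5 to 36.5 dpp, where Rec8 rose, Stag1 (-0.83 ± 0.18, 0.00112) and Smc1a (-1.54 ± 0.35, 0.00176) fell and none of the 11 rose.

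Freezing before use was compared with fresh tissue at 6.5 dpp and D30 in 1 fit adjusted for stage. None of the 5 members was called by edgeR, with log2 fold changes of frozen against fresh of -0.36 ± 0.25 for Bhmg1, 0.34 ± 0.22 for Stra8, 0.43 ± 0.49 for Meioc, -0.18 ± 0.22 for Ythdc2 and -0.06 ± 0.25 for Rec8. None of the 5 had an unadjusted p under 0.05 and none passed DESeq2. Of all 19758 genes tested 0% were called by edgeR, 1294 had an unadjusted p under 0.05, and DESeq2 called 4. The comparison rested on 1 fresh library at 6.5 dpp and 1 frozen library at D30.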

How the data were processed

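Single-end reads of a stranded polyA library kit were aligned by the authors to GRCm38 with STAR 2.7.3a and HTSeq 0.12.4 (intersection-nonempty) counted them per gene, and the deposited values are these raw counts. The strand setting of the counting is not given in the sources used here. Symbols came from RefSeq (27373 of 27466 genes matched) and exon lengths from GENCODE. Totals were 28351546 to 69029328 counts in the 21 libraries used. PCR copies were not told apart from molecules, so precision from counts covers counting error only.

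Levels were computed as CPM on the library total. Differences were tested with edgeR 4.0.16 in R 4.3.3 (TMM, filterByExpr, quasi-likelihood F test, Benjamini-Hochberg over the 19255 genes tested, called at an adjusted p under 0.05) in 1 fit of 7 stages with frozen and fresh tissue joined, and freezing as an added term over 19758 genes. The standard error was taken from the fold change and the F statistic. DESeq2 1.42.0 was an alternative, and plots were drawn with matplotlib 3.10.9. The steps were tested on simulated data.

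Genes named beside the members were, for each list, up to 4 called genes with the smallest p, and the 3 genes most correlated with each member. Not every gene that this rule allows is named, and 1 of them is not reported here. The members, lists and comparisons were chosen with earlier results of these data known. The study's second pipeline was not used here.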

Additional observations from a re-analysis of the deposited data

Results flagged for a closer look

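The effect of culture, taken as the log2 fold change against the age-matched testis, was compared between ages by edgeR's test of the difference itself. Between 10.5 and 22.5 dpp it differed for Ythdc2 by -1.29 ± 0.32 (adjusted p = 0.0208), beside 9.61% of all genes called. That call was lost in 8 of 21 alternatives. Between 22.5 and 36.5 dpp the effect differed by 2.26 ± 0.42 for Bhmg1 (adjusted p = 0.00155), by 1.54 ± 0.36 for Stra8 (0.00665) and by -2.18 ± 0.37 for Rec8 (0.000846). Of all genes 20.1% were called there, and the Stra8 call was lost in 2 of 21 alternatives. Over the later ages the spermatid markers went from 10.1 to 61.5 CPM at 22.5 dpp to 16672 to 21706 CPM at 36.5 dpp in vivo, and from 5.99 to 27.9 CPM at D16 to 352 to 1662 CPM at D30 in culture, and their part in these differences was not tested. Within the 10 groups of 4 libraries that were checked, no library of a member stood apart from the others by Dixon's criterion, which has little power at that size. 6.5 dpp CSF replicate 3 had 77.6 CPM of undifferentiated spermatogonia markers, against 191 to 197 CPM in the other 6.5 dpp libraries used. Its endothelial markers had 105 against 180 to 202 CPM and its erythroid markers 129 against 30.9 to 42.9 CPM. Its peritubular and macrophage markers lay within the range of the others.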

How the results depend on the processing

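Depth did not limit these values, since the lowest count of a member in a library was 246. The number of libraries did, with 2 to 4 a stage. The alternatives gave 855 tested fold changes of the members or differences between them, of which 770 kept their direction and side of the threshold. Where 1 library was left for a stage, as for 6.5 dpp with fresh libraries only and for D16 or 36.5 dpp in leave-one-out fits, it was assumed to vary like the other groups. Counts of called members are given here, with the value of the main setting in brackets. Outside the leave-one-out fits, changes of a count by a factor of at most 1.5 are left out of this paragraph. Among them is the loss of Bhmg1 for D30 against 36.5 dpp, given above. With changes over 2 on the log2 scale at an adjusted p under 0.001, 1 member (3) was called for 22.5 against 10.5 dpp, 2 (4) for 36.5 against 22.5 dpp, 1 (3) for the later difference of culture effects, and 0 for D4 against 6.5 dpp, D16 against D4, D16 against 22.5 dpp and the earlier difference. With the library labelled 6.5 dpp fresh replicate 1, 1 member (2) was called for D16 against D4 and 0 for D4 against 6.5 dpp, D16 against 22.5 dpp and the earlier difference. With library size only or with scaling by Ddx4 and Dazl the earlier difference gave 0 (1), and with the latter D16 against 22.5 dpp gave 1 (2), a different gene, since Bhmg1 and Ythdc2 were lost and Stra8 was gained (1.11). With fresh libraries only D4 against 6.5 dpp gave 0 (2). With only the groups compared, D4 against 6.5 dpp gave 1 (2), D4 against 10.5 dpp 2 (0), D16 against 22.5 dpp 1 (2) and the earlier difference 2 (1). Leaving out each library in turn gave 3 to 4 members for 22.5 against 10.5 dpp, 4 in every case for 36.5 against 22.5 dpp, 1 to 3 for D4 against 6.5 dpp, 1 to 2 for D16 against D4, 0 for D30 against D16 and for D4 against 10.5 dpp, 1 to 3 for D16 against 22.5 dpp, 2 to 3 for D30 against 36.5 dpp, 0 to 1 for the earlier and 2 to 4 for the later difference, and 0 for freezing.

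With the replicate block D4 against 6.5 dpp gave 1 member (2) and the later difference 4 (3), and the other counts were those of the main setting. Over 64 pairs with the same replicate number the correlation of deviations ran from -0.73 to 0.75 with a median of 0.03. Over 123 pairs with different numbers it ran from -0.79 to 0.79 with a median of -0.005. The deviations were taken within stages of 2 to 4 libraries, which fixes part of them in advance, so these values cannot decide whether the numbers pair the libraries.

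Signs turned only for values that had not passed a test or were not tested. With scaling by Ddx4 and Dazl the log2 fold change of 22.5 against 10.5 dpp was -0.57 for Bhmg1 and -0.35 for Rec8, that of Rec8 was 0.13 for D30 against D16 and 0.016 for D16 against 22.5 dpp, and that of Stra8 was -0.016 for freezing. For D30 against 36.5 dpp Ythdc2 was -0.22 with RLE factors and by DESeq2 and -0.015 with at least 1 CPM in 2 libraries, and Meioc was 0.10 with library size only. For D30 against D16 Bhmg1 was -0.040 with library size only, -0.00441 with no filter and -0.00966 with only the groups compared. With the library labelled 6.5 dpp fresh replicate 1, Meioc was -0.33 for 10.5 against 6.5 dpp and -0.86 for freezing. Leaving out each library in turn gave -0.22 to 0.22 for Bhmg1, -0.078 to 0.37 for Stra8, -0.53 to 0.22 for Meioc and -0.37 to 0.085 for Rec8 in D30 against D16, -0.058 to 0.13 for Ythdc2 in D30 against 36.5 dpp, -0.21 to 0.079 for Ythdc2 in D16 against D4, and -0.015 to 0.39 for Rec8 in 10.5 against 6.5 dpp. It gave -0.024 to 0.43 for Stra8 in the earlier and -0.055 to 0.70 for Meioc in the later difference, and for freezing -0.14 to 1.01 for Meioc, -0.39 to 0.039 for Ythdc2 and -0.12 to 0.013 for Rec8. The cause was not tested.

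The median log2 fold change of all genes moved with the scaling. With library size only it moved by 0.63 for D30 against 36.5 dpp and by -0.51 for 36.5 against 22.5 dpp, and the share of called genes that were higher went from 48% to 65.8% and from 45.9% to 27.9%. With scaling by Ddx4 and Dazl it moved by -0.92 for 22.5 against 10.5 dpp and by 0.59 for D16 against 22.5 dpp, and that share went from 54.6% to 29% and from 54.3% to 93.6%.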
